A study of Mus musculus with 8 samples.

Results

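The type I interferon response genes described here are 36 mouse genes of the interferon receptor, its signal transducers, the sensors of foreign nucleic acid and the antiviral proteins that interferon induces. Their probes were taken by name, as all probes whose gene name, or whose gene by RefSeq accession, is on the list, a rule that uses no measured value. The list itself was chosen with earlier results of these data known. Of the 36 genes, 35 had a probe, and 48 of the 60273 gene probes on the array read them. All 35 passed the filter on dim probes and were among the 42432 genes tested. The remaining gene, Oas1a, which encodes a 2'-5'-oligoadenylate synthetase, had no probe of its own. The probe of Ifi205 also lists transcripts of Ifi211 and Mndal, so its signal cannot be given to Ifi205 alone.

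RNA came from donor-derived myeloid cells of the mouse brain after an experimental stroke, in 8 samples, each on 1 single-colour array. The knockout samples (Psgl1-/-, replicates 5 to 8) were cells of Selplg-deficient DsRed bone marrow in wild-type hosts, and the wild-type samples (Psgl1+/+, replicates 1 to 4) were cells of DsRed bone marrow with intact Selplg in such hosts. Selplg encodes PSGL-1, the leukocyte glycoprotein that binds selectins. All 8 samples came from ischemic brain at 7 days after 30 min of middle cerebral artery occlusion (MCAo) and reperfusion, and cells negative for propidium iodide, Ly6G and CD3 and positive for DsRed and CD11b, with high CD45, were sorted. Both groups thus share the wild-type host, the DsRed label, the injury and the gate, and the cells that the host itself keeps, such as its microglia, lack DsRed. The number of chimeras behind a sample, their age and the strain are not given in the sources used here, and the spread between samples may in part be technical. The question is which RNAs of marrow-derived brain cells change when their donor lacked PSGL-1.

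Type I interferons are secreted when a cell senses foreign or misplaced nucleic acid, and they act on nearly all cells through a receptor made of Ifnar1 and Ifnar2. The receptor's kinases Jak1 and Tyk2 phosphorylate Stat2, which acts with Irf9 in a complex that binds the interferon-stimulated response element in the promoters of target genes. Their products block viral RNA and protein synthesis, and several of them (Ddx58, Ifih1, Irf7, Stat2, Irf9) are themselves sensors or transducers, so that the response feeds back on itself. In the brain, microglia and infiltrating myeloid cells with raised interferon-stimulated genes have been described after ischemia.

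The response element leaves a readable trace in the genes' promoters. Its core, GAAA followed by any 2 bases and GAAA again, was searched on both strands, overlapping matches included, in the RefSeq promoters of build GRCm38.p6, each from 250 bases before to 50 bases after the start of a gene. It was present in 13 of the 30 promoters of the 26 members in that table (43.3%), against 1131 of all 32851 promoters (3.44%), and at least 1 promoter of 13 of the 26 genes held it. Mx1, Mx2, Oas2, Usp18, Dhx58, Zbp1, Parp14, Rtp4, Ifi27l2a and Ifi204 had no promoter in that table. They were not searched, and whether they hold the core is not known here. The windows below are printed to show this shared element in genes whose signals follow, each on the strand of its gene, 5′ to 3′, with the core, or its reverse complement, in capitals. In Ifit3 (chr19:34583358-34583431, plus strand) and Ifit1 (chr19:34640770-34640828, plus strand), the core lies on the opposite strand and occurs at 2 places. In Isg15 (chr4:156200860-156200911, minus strand) 3 matches run into each other. Bst2 (chr8:71537572-71537617, minus strand) holds 2 overlapping matches, Oas3 (chr5:120777710-120777749, minus strand) holds 1, and Stat2 (chr10:128270261-128270300, plus strand) and Rsad2 (chr12:26456548-26456587, minus strand) hold 1 on the opposite strand.
Ifit3: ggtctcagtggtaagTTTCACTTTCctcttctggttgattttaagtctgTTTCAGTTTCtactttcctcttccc
Ifit1: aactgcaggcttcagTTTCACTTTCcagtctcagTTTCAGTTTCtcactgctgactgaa
Isg15: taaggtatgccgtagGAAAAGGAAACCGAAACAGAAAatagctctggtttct
Bst2: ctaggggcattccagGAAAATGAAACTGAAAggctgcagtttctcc
Oas3: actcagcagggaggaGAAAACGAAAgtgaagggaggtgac
Stat2: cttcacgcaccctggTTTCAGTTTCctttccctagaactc
Rsad2: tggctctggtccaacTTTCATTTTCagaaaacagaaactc
Eif2ak2 and Ddx58 held the core just after the start, with its first base at positions 19 and 3. A match is a description of these letters and not a site of binding.

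Signals are given as log2 of the scanner's processed intensity after each array was scaled to a common 75th percentile, and a difference is the knockout mean minus the wild-type mean on that scale, so that 1 unit is a 2-fold difference. The arrays read between 76.2% and 88.2% of their gene spots as well above background in the knockout group and between 76.1% and 86.8% in the wild-type group. Before scaling, the 75th percentile of the intensity was 832 to 957 on the knockout arrays and 518 to 747 on the wild-type arrays, so the groups did not overlap in this measure. The median difference of the 42432 tested genes was -0.33, and it ranged from -0.33 to -0.01 over the main scaling and 5 others. Each member is therefore read beside that shift. Itgam and Ptprc, which encode the sorted antigens CD11b and CD45, and the other 12 macrophage and monocyte markers were well above background on all 8 arrays. So were Cd3d, Cd3e and Cd3g, and Ly6g on 7, although the gate was set to remove the cells that carry CD3 and Ly6G. The neuron markers Snap25 and Syt1 were also well above background on all 8 arrays. Their knockout means were 15.85 and 15.53, beside 13.51 for Itgam. A reading well above background thus does not by itself mark a cell type here. Selplg itself was at 13.25, 13.45, 13.15 and 12.87 in knockout replicates 5 to 8, against 13.80, 12.67, 13.05 and 15.75 in wild-type replicates 1 to 4 (difference -0.64, SE 0.65, limma adjusted p = 0.680). Its probe was not shown to lie in the deleted part of the gene and checks nothing about the labels, on which all directions rest.

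No member passed the test: 0 of 35 had a limma adjusted p under 0.05 over all tested genes, and the lowest was 0.313, for Eif2ak2. The same test called 1 of all 42432 genes (0.00236%), so a share near 0 is the background here. At an unadjusted p under 0.05 there were 3 members with higher signal in the knockout arrays (Eif2ak2, Ifit3 and Ddx58), against 1.61% of all genes, and 1 with lower signal (Cmpk2), against 9.37%. limma was the only tool run over all genes. Tested probe by probe, 0 of the 46 member probes above the filter passed, against 9 of 51380 probes (0.0175%).

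The differences of the members lay on the higher side of the whole array. Of the 35 members, 23 had a positive and 12 a negative difference, against 30.8% of all genes with a positive one, a share that was 38.2% to 39.1% under 4 other scalings and 49.2% after cyclic loess. Their median was 0.47, against -0.33 over all genes, a gap of 0.80 that ranged from 0.54 to 0.80 over the 6 scalings, with 23 to 26 members positive. Leaving out single arrays moved the gap further, between 0.34 without wild-type replicate 2 and 1.48 without wild-type replicate 3, with 18 to 25 members positive. Every knockout array lay above every wild-type array in 3 members (Ifit3, Eif2ak2 and Ddx58), against 0.641% of all genes, and below in 0 members, against 10.8%. These shares of all genes are for the main scaling, with its median of -0.33. The members scatter more within groups (median pooled SD 1.93, against 0.76 over all genes). A common shift parts the groups more readily in genes with little scatter, so these shares, and those by sign, are not like for like. Since interferon-stimulated genes tend to move together, the members are not independent of each other, and these counts carry no test.

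**Figure D1:**
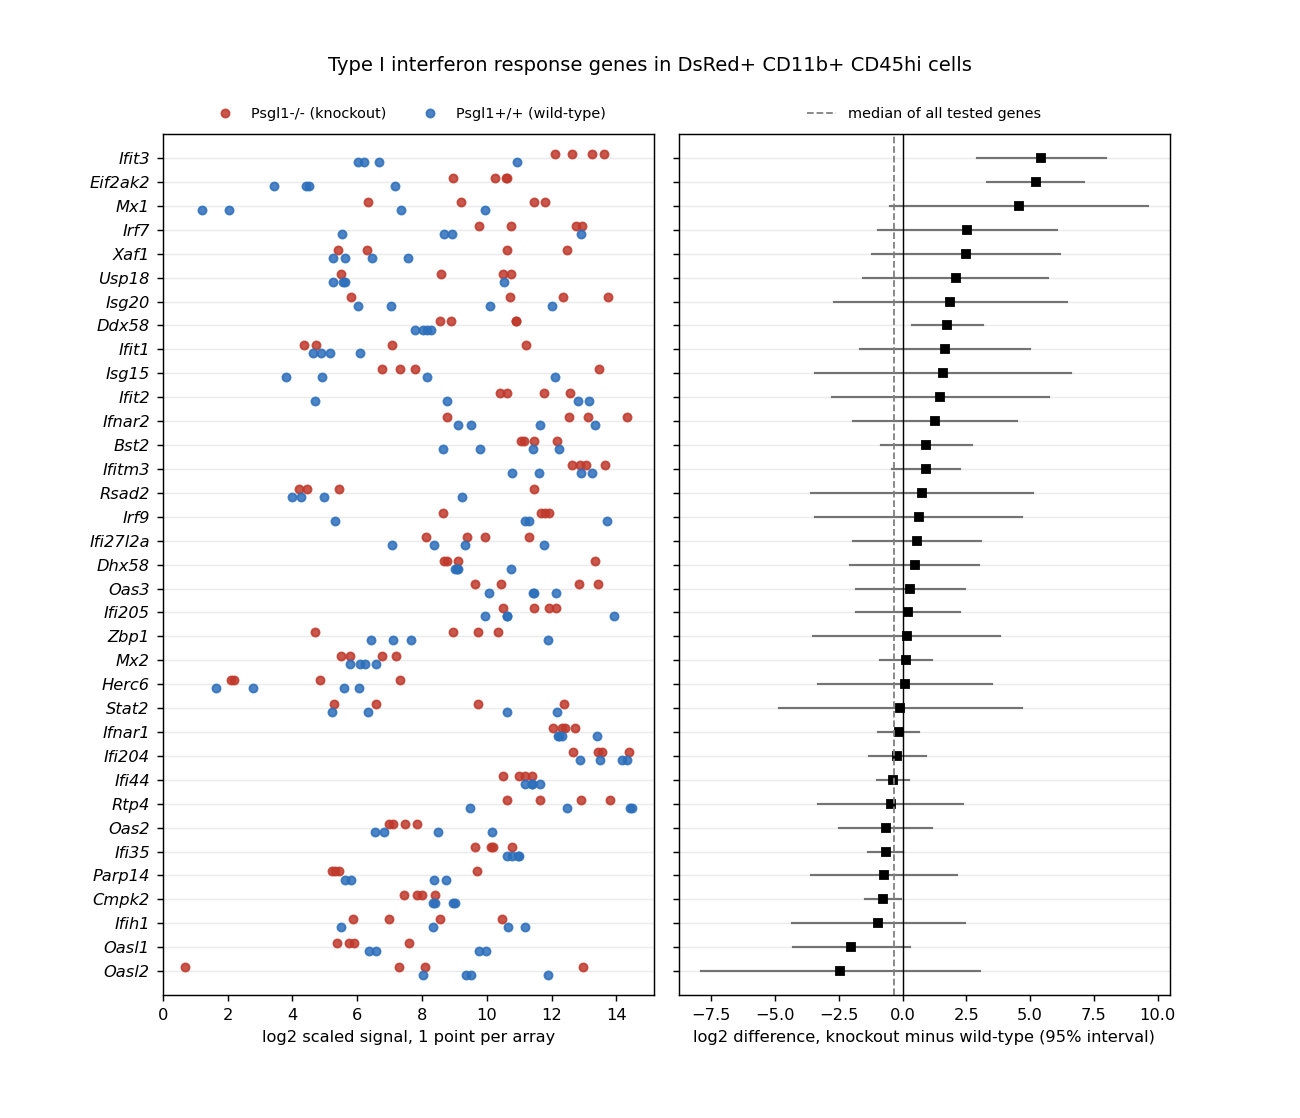
Left, log2 scaled signal of the 35 measured members on each array, red for the 4 knockout arrays and blue for the 4 wild-type arrays. Right, the difference of the group means (square) with its 95% interval from limma, the dashed line marking the median of all tested genes at -0.33. The members are ordered by difference, from 5.44 for Ifit3 to -2.45 for Oasl2, and the groups are apart in Ifit3, Eif2ak2 and Ddx58.

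The RNA-binding effectors, listed apart from the sensors, held both ends of the set, from 5.44 for Ifit3 to -2.45 for Oasl2. Of 9 such members 6 were positive and 3 negative, with a median difference of 1.48. Ifit3 belongs to a family of tetratricopeptide proteins that bind viral RNA lacking host cap marks. Its signal was 13.62, 12.63, 13.26 and 12.09 in knockout replicates 5 to 8, against 6.68, 6.20, 10.93 and 6.03 in wild-type replicates 1 to 4. The groups did not overlap, and wild-type replicate 3 was the one control array that came near the knockout level. The difference was 5.44 (SE 1.09, 43.4-fold, n = 4 per group, limma adjusted p = 0.454), and without wild-type replicate 3 it was 6.60 (limma adjusted p = 0.0225), which was the only setting of 20 in which any member passed. On the slide's row 1 it was 6.25 and on row 2 it was 4.64.

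Eif2ak2, which encodes the kinase PKR that halts protein synthesis on binding double-stranded RNA, was at 10.62, 10.25, 10.60 and 8.97 in the knockout arrays, against 4.52, 7.18, 3.44 and 4.43 in the wild-type arrays. All knockout arrays were high and the groups lay apart by more than 1 unit. Its probe was well above background on 4 knockout arrays and on 3 of 4 wild-type arrays, so the lowest wild-type values are near the limit of the reading. The difference was 5.22 (SE 0.81, 37.2-fold, limma adjusted p = 0.313), and over 19 settings it stayed between 3.54 and 5.98, with an adjusted p from 0.0747 to 0.636.

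Both genes were read by a single probe, whose first 30 bases are printed here because these readings carry the largest differences in the set. The files place neither probe on the mm9 genome. The Ifit3 gene is on chromosome 19 and Eif2ak2 on chromosome 17 in RefSeq, and the lower-case letters run 5′ to 3′ as in the deposited files.
Ifit3 probe: taacctccagtagcaaattgtggtggattc
Eif2ak2 probe: gggccttattctagctgaacttcttcacac
Ddx58 probe: gaaattaaaatctttcaccatgcctggctc
The Ddx58 probe (chromosome 4), which is likewise alone for its gene and not placed, is shown with them since Ddx58 is the third member in which the groups are apart.

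Ifit1, the family member that holds uncapped RNA, did not follow Ifit3. It was at 4.35, 7.09, 11.22 and 4.72 in the knockout arrays, against 5.17, 4.64, 4.89 and 6.08 in the wild-type arrays. Knockout replicate 7 was the high array, and knockout replicates 5 and 8 lay within or below the wild-type range. The difference was 1.65 (SE 1.44, limma adjusted p = 0.626), and without knockout replicate 7 it was 0.19. Ifit2, which acts with Ifit3, averaged 11.35 ± 1.01 in the knockout arrays and 9.86 ± 3.98 in the wild-type arrays (SD, n = 4 each). Isg20, an RNA exonuclease, averaged 10.66 ± 3.47 in the knockout arrays and 8.78 ± 2.76 in the wild-type arrays, with a difference of 5.01 on slide row 1 and of -1.26 on row 2.

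The 2'-5'-oligoadenylate synthetases, which make the second messenger that activates RNase L, and their relatives lay on both sides of 0. Oas3 averaged 11.58 ± 1.84 in the knockout arrays and 11.28 ± 0.88 in the wild-type arrays. Oas2 averaged 7.35 ± 0.39 in the knockout arrays and 8.0 ± 1.67 in the wild-type arrays. The relatives Oasl1 and Oasl2 had the most negative differences of the set. Oasl1, which restrains Irf7 translation in mouse cells, was at 5.74, 5.91, 7.59 and 5.39 in the knockout arrays, against 6.38, 9.76, 9.99 and 6.58 in the wild-type arrays. Knockout replicate 7 was the only knockout array above any wild-type array. The difference was -2.02 (SE 0.99, limma adjusted p = 0.463), and a further probe of Oasl1 gave -1.17. Oasl2 was at 7.29, 8.09, 12.97 and 0.68 in the knockout arrays, against 9.37, 8.04, 11.91 and 9.52 in the wild-type arrays. The knockout arrays held both the highest and the lowest reading, the lowest being the only one not well above background. The difference was -2.45 (SE 2.35, limma adjusted p = 0.661), with an interval from -7.91 to 3.02. Without knockout replicate 8 it was -0.25, and without knockout replicate 7 it was -4.35.

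The system of Isg15, a ubiquitin-like protein that is attached to newly made proteins, had 3 positive members of 3, with a median difference of 1.59, that of Isg15 itself. Isg15 was at 6.77, 7.78, 13.48 and 7.32 in the knockout arrays, against 4.93, 8.15, 12.11 and 3.79 in the wild-type arrays. Knockout replicate 7 and wild-type replicate 3 were both far above the rest of their groups. The difference was 1.59 (SE 2.16, limma adjusted p = 0.763), and 1 wild-type reading was not well above background. Without knockout replicate 7 it was 0.042, and without wild-type replicate 3 it was 3.21. Usp18, the protease that removes Isg15 and also quiets the receptor, averaged 8.82 ± 2.42 in the knockout arrays and 6.74 ± 2.54 in the wild-type arrays. Herc6, the main ligase for Isg15 in the mouse, averaged 4.12 ± 2.49 in the knockout arrays and 4.02 ± 2.14 in the wild-type arrays and was well above background on 2 arrays of each group.

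Among the 7 effectors at membranes and nucleotide pools 5 were positive and 2 negative, with a median difference of 0.77. Mx1 and Mx2 encode dynamin-like GTPases that trap viral nucleocapsids, and both are defective in most laboratory mouse strains. Mx1 was at 11.81, 6.34, 11.44 and 9.20 in the knockout arrays, against 2.05, 1.22, 9.95 and 7.35 in the wild-type arrays. Wild-type replicates 1 and 2 were low and not well above background, while the other two wild-type arrays lay within the knockout range. The difference was 4.56 (SE 2.17, limma adjusted p = 0.459), with an interval from -0.49 to 9.61. It was 2.60 with normexp background correction and 1.52 with the mean over both probes, so its size depended on the processing. Mx2 averaged 6.31 ± 0.80 in the knockout arrays and 6.18 ± 0.33 in the wild-type arrays. Rsad2, the radical-SAM enzyme viperin that makes a chain-terminating nucleotide, averaged 6.39 ± 3.43 in the knockout arrays and 5.62 ± 2.46 in the wild-type arrays. Its neighbour Cmpk2, a mitochondrial nucleotide kinase that is induced with it, averaged 7.92 ± 0.39 in the knockout arrays and 8.68 ± 0.37 in the wild-type arrays. The spread of Cmpk2 was small, and its difference of -0.77 (SE 0.31, limma adjusted p = 0.454) was the same on both slide rows, at -0.77 on each. Ifitm3, which blocks fusion of viral and endosomal membranes, averaged 13.06 ± 0.44 in the knockout arrays and 12.14 ± 1.15 in the wild-type arrays. Bst2, or tetherin, which holds budding virus at the cell surface, averaged 11.46 ± 0.51 in the knockout arrays and 10.53 ± 1.62 in the wild-type arrays. Rtp4, a receptor transporter protein, averaged 12.25 ± 1.39 in the knockout arrays and 12.72 ± 2.34 in the wild-type arrays.

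Of the 6 sensors of nucleic acid 4 were positive and 2 negative, with a median difference of 0.19. Ddx58, or RIG-I, which detects RNA with a free 5′ triphosphate, was at 8.91, 8.55, 10.89 and 10.92 in the knockout arrays, against 8.27, 8.16, 7.78 and 8.04 in the wild-type arrays. The groups did not overlap, but the lowest knockout array was close to the highest wild-type array, and knockout replicates 7 and 8 made up most of the gap. The difference was 1.76 (SE 0.60, 3.38-fold, limma adjusted p = 0.454), and it was 1.63 on slide row 1 and 1.88 on row 2. Ifih1, or MDA5, which detects long double-stranded RNA, was at 5.88, 6.99, 10.46 and 8.55 in the knockout arrays, against 8.35, 5.52, 11.17 and 10.66 in the wild-type arrays. High and low arrays occurred in both groups. The difference was -0.95 (SE 1.46, limma adjusted p = 0.790). Dhx58, or LGP2, a regulator of both, averaged 9.96 ± 2.25 in the knockout arrays and 9.50 ± 0.84 in the wild-type arrays. Zbp1, which detects nucleic acid in the Z form and triggers necroptosis, averaged 8.44 ± 2.55 in the knockout arrays and 8.27 ± 2.46 in the wild-type arrays. Ifi204, a DNA sensor of the PYHIN family, averaged 13.51 ± 0.72 in the knockout arrays and 13.72 ± 0.66 in the wild-type arrays, a difference of -0.21 that turned positive under 4 of the 5 other scalings. The Ifi205 probe averaged 11.51 ± 0.72 in the knockout arrays and 11.28 ± 1.79 in the wild-type arrays.

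Of the 5 members of the receptor and its transducers 3 were positive and 2 negative, with a median difference of 0.63. Ifnar1 was at 12.73, 12.42, 12.34 and 12.05 in the knockout arrays, against 12.24, 12.31, 12.20 and 13.40 in the wild-type arrays. All arrays but wild-type replicate 4 lay within 1 unit of each other. The difference was -0.16 (SE 0.35, limma adjusted p = 0.857), with an interval from -0.96 to 0.65, and it turned positive after quantile normalization, after cyclic loess and in the deposited value table. A further probe, named through its RefSeq accession, gave -0.70 (SE 1.22), the lowest value over the settings. Ifnar2 was at 12.54, 8.76, 14.32 and 13.11 in the knockout arrays, against 9.52, 11.66, 13.34 and 9.11 in the wild-type arrays. Its groups overlapped over most of their range, with a difference of 1.27 (SE 1.39, limma adjusted p = 0.703). Its pooled SD was 2.19, against 0.45 for the Ifnar1 probe used. This is a contrast of probes and not of the subunits, since the other Ifnar1 probe had an SD of 1.98 in the knockout arrays and 1.86 in the wild-type arrays.

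Stat2 was at 6.57, 5.30, 12.39 and 9.74 in the knockout arrays, against 10.62, 6.35, 12.18 and 5.22 in the wild-type arrays. Knockout replicate 7 and wild-type replicate 3 were the highest of their groups. The difference was -0.09 (SE 2.05, limma adjusted p = 0.988), and it turned positive after scaling to the array median and after cyclic loess. Irf9, the DNA-binding partner of the Stat pair, was at 8.64, 11.81, 11.91 and 11.68 in the knockout arrays, against 11.19, 5.30, 11.32 and 13.72 in the wild-type arrays. A low array stood apart in each group. The difference was 0.63 (SE 1.74, limma adjusted p = 0.890). Irf7, the factor that drives most of the interferon alpha genes, was at 9.76, 10.76, 12.75 and 12.93 in the knockout arrays, against 5.53, 8.92, 8.70 and 12.92 in the wild-type arrays. Only wild-type replicate 4 reached the knockout range. The difference was 2.53 (SE 1.52, 5.79-fold, limma adjusted p = 0.502), and without wild-type replicate 4 the groups were apart.

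**Figure D2:**
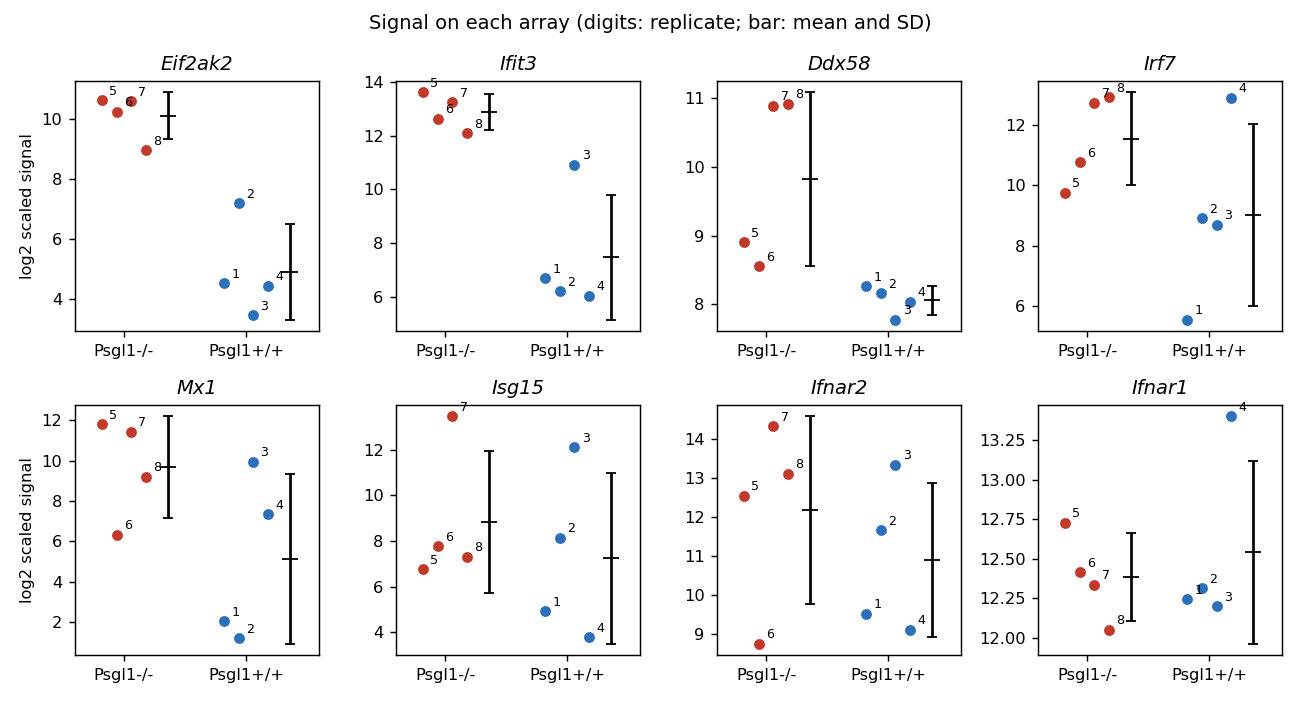
Log2 scaled signal of 8 members on each array, with the replicate number beside each point and the group mean and SD (n = 4) to its right. The groups are apart in Eif2ak2, Ifit3 and Ddx58, whereas 1 wild-type array (replicate 4) reaches the knockout range in Irf7 and Ifnar1 lies between 12.05 and 12.73 on all arrays but wild-type replicate 4. The vertical scale differs between panels.

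The 5 further interferon-stimulated members had 2 positive and 3 negative differences, with a median of -0.37. Xaf1, a partner of the inhibitor of apoptosis Xiap, averaged 8.70 ± 3.40 in the knockout arrays and 6.22 ± 1.02 in the wild-type arrays. Ifi27l2a, a small membrane protein that is a common marker of the response in brain myeloid cells, averaged 9.69 ± 1.33 in the knockout arrays and 9.13 ± 1.99 in the wild-type arrays. Ifi35 averaged 10.18 ± 0.47 in the knockout arrays and 10.84 ± 0.17 in the wild-type arrays. Ifi44 averaged 11.02 ± 0.38 in the knockout arrays and 11.40 ± 0.18 in the wild-type arrays. Parp14, a mono-ADP-ribosyltransferase, averaged 6.42 ± 2.19 in the knockout arrays and 7.14 ± 1.66 in the wild-type arrays. None of the 5 passed (limma adjusted p of 0.454 or more).

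Scatter between arrays of a group was wider in these genes than on the array as a whole. The median pooled SD of the 35 members was 1.93 log2 units, from 0.30 in Ifi44 to 3.75 in Oasl2, against 0.76 over all tested genes. In 16 members it was above 2 units, and in 6 it was under 0.8 (Mx2, Cmpk2, Ifi35, Ifi44, Ifnar1 and Ifi204, each by the probe used). Wide scatter was not particular to the members. The macrophage and monocyte markers also held both wide and narrow genes. Mertk had an SD of 3.63 in the knockout arrays and 3.04 in the wild-type arrays, and Aif1 had 0.30 and 0.25. The probes used were well above background on all 8 arrays in 29 of the 35 members. By slide row, 14 members were positive in both rows, 7 negative in both and 14 of opposite sign, that is, 40% of members were positive in both rows, against 13.3% of all genes with a value on every array, and 20% were negative in both, against 48.2%. Leaving out arrays turned the sign of 15 members, all with an absolute difference under 1.5, and 18 members kept their sign in every setting, 13 positive and 5 negative.

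Part of this scatter was shared between members. The mean member signal was 8.98, 9.02, 10.92 and 9.47 in knockout replicates 5 to 8, against 8.25, 8.07, 10.04 and 8.87 in wild-type replicates 1 to 4. Knockout replicate 7 was the highest of the knockout arrays and wild-type replicate 3 the highest of the wild-type arrays, and the groups overlapped. These were also the arrays with the lowest shares of gene spots well above background, at 76.2% and 76.1%. The share followed the slide row, at 76.1% to 81.6% on row 2, which holds both arrays, and 86.2% to 88.2% on row 1. A link between the shares and the member signals was not tested. Knockout replicate 7 had the highest signal of all 8 arrays in 9 members, wild-type replicate 2 in none. Without wild-type replicate 2 the median member difference was 0.0024, with 18 of 35 positive, and without knockout replicate 7 it was 0.09, with 20 positive. Without wild-type replicate 3 it was 1.11, with 25 positive. Without knockout replicate 7 and wild-type replicate 3 together, a setting chosen after the data were seen, it was 0.73 with 21 positive. Ifit3, Eif2ak2 and Ddx58 were then still apart with higher knockout signal, and Oasl1 and Parp14 were apart with lower knockout signal.

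Macrophage and monocyte markers were also high on knockout replicate 7 and wild-type replicate 3, but not every list of cell markers was. Knockout replicate 7 was the highest array of the neutrophil and oligodendrocyte lists (10.07 and 10.42). It was the lowest of the plasmacytoid dendritic cell, T and NK cell, B cell and neuron lists (9.24, 7.69, 9.22 and 10.60). The mean of the 14 macrophage and monocyte markers, all well above background on all arrays, was 11.19, 11.15, 13.16 and 12.83 in knockout replicates 5 to 8, against 10.58, 10.86, 12.68 and 12.51 in wild-type replicates 1 to 4. Knockout replicates 7 and 8 and wild-type replicates 3 and 4 were thus the 4 high arrays of this list. They fill slide columns 4 and 2, and a link to slide position was not tested. Of its members 8 had a positive and 6 a negative difference, with a median of 0.27. Markers of plasmacytoid dendritic cells, the specialised producers of interferon alpha, were measured by 11 of 12 genes and had a mean of 9.24 to 10.12 in the knockout arrays, against 9.53 to 9.92 in the wild-type arrays, with 2 positive and 9 negative differences. The largest was that of Tcf4 (4.09, limma adjusted p = 0.454), whose groups overlapped. The neutrophil list had a mean of 8.91 to 10.07 in the knockout arrays, against 7.99 to 9.31 in the wild-type arrays, with 6 positive and 6 negative differences and a median of 0.04. In that list S100a9 was apart with higher knockout signal (difference 4.78, limma adjusted p = 0.454), and Csf3r was apart with lower knockout signal (-0.40, limma adjusted p = 0.508), its sign depending on the scaling. The microglia list had a mean of 10.09 to 10.91 in the knockout arrays, against 9.25 to 11.28 in the wild-type arrays, with 5 positive and 5 negative differences. Cx3cr1 (-1.30) and Siglech (-0.55), which is also on the plasmacytoid list, were apart with lower knockout signal, each with a limma adjusted p of 0.454. The part of these cell types in the member differences was not tested. In such sorted pools, a different share of cells with an interferon response and a different amount of RNA of these genes per cell cannot be told apart.

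**Figure D3:**
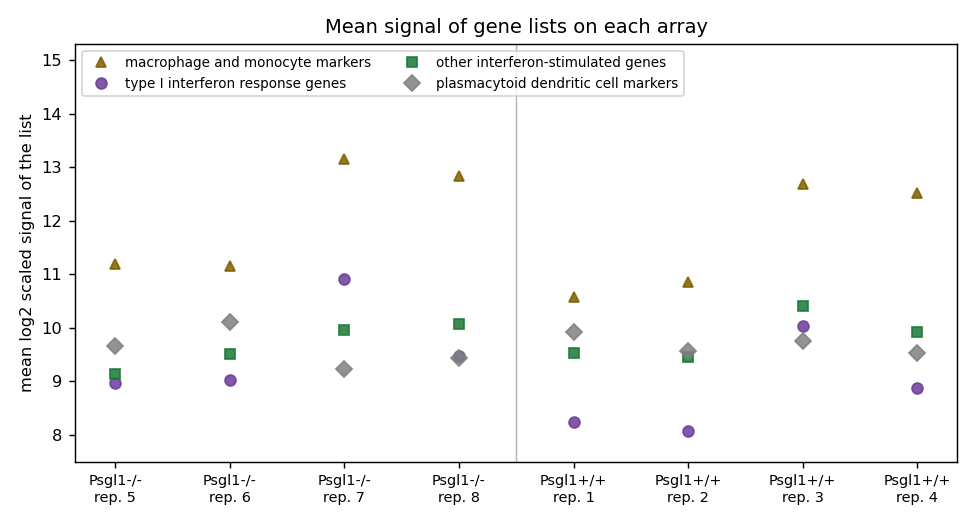
Mean log2 scaled signal of 4 gene lists on each array, knockout replicates 5 to 8 on the left and wild-type replicates 1 to 4 on the right. Levels are to be read across arrays within a list: the type I interferon response genes peak at 10.92 in knockout replicate 7 and 10.04 in wild-type replicate 3, 2 of the 4 arrays on which the macrophage and monocyte markers are high, whereas the plasmacytoid dendritic cell markers stay between 9.24 and 10.12.

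Several members were read by more than 1 probe, and these readings often parted. Of 9 genes with more than 1 tested probe (20 probes), 6 had probes with differences of both signs (Dhx58, Ifi204, Ifnar2, Mx1, Mx2 and Xaf1). The brighter probe of Mx1 gave 4.56 and the other -1.51 (SE 1.44). The first 30 bases of each are printed to show that these are different probes, and the RefSeq gene lies on chromosome 16.
Mx1 brighter probe: tttccaaggaaactggacgtttccacttta
Mx1 other probe: ccaaacctgccttcgtaaagattttatcaa
On the second probe the knockout arrays lay at 6.19, 4.61, 6.09 and 5.06, against 5.82, 11.64, 5.67 and 4.87 in the wild-type arrays. Wild-type replicate 2, the lowest array by the brighter probe, was the highest by this one. A size for Mx1 can therefore be given for a probe but not for the gene. Xaf1 gave 2.48, 1.66 and -2.05 by its 3 probes, Ifi204 gave -0.21 and 2.17, Dhx58 gave 0.47 and -1.48, and Ifnar2 gave 1.27 and -0.22.

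Isg20 had 3 probes. Of these, 2 are nested and share 47 bases (chromosome 7), and the third reads another stretch. The first 30 bases of each are printed, with the shared letters among them in capitals.
Isg20 longer nested probe: gcaaTGTGTAAAACCAAGAACACTCCCCCA
Isg20 shorter nested probe: TGTGTAAAACCAAGAACACTCCCCCATTAC
Isg20 separate probe: caagctgcagtactacagccgagtgtccct
The nested probes gave differences of 1.98 and 1.88, and the separate probe gave 1.94, so the 3 estimates were alike. Behind them, however, the arrays were ordered differently. On the shorter nested probe the knockout arrays lay at 5.80, 13.76, 10.72 and 12.36, with replicate 5 the lowest. On the separate probe they lay at 10.79, 4.94, 6.86 and 9.97, with replicate 5 the highest. The wild-type arrays lay at 7.03, 6.01, 12.004 and 10.09 on the shorter nested probe and at 5.82, 4.88, 8.88 and 5.21 on the separate one, with replicate 3 the highest on each.

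**Figure D4:**
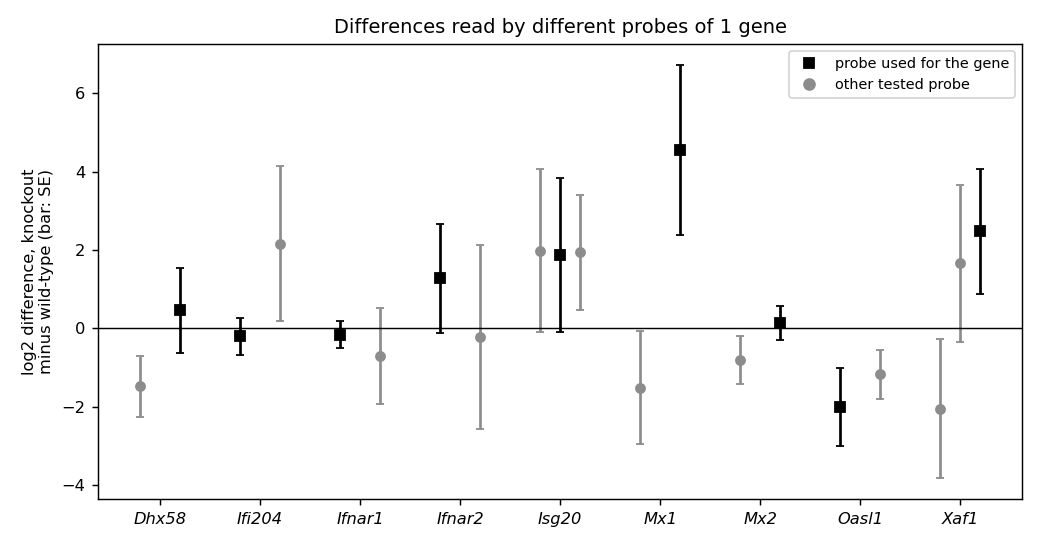
Difference (knockout minus wild-type, log2) read by each tested probe of the 9 members with more than 1 such probe; squares are the probe used for the gene, circles the others, and bars the SE from limma. The probes of Mx1 lie at 4.56 and -1.51 and those of Xaf1 between -2.05 and 2.48, while the 3 probes of Isg20 lie together near 1.9.

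The interferon genes themselves, the ligands, lay on both sides of 0. Of 18 listed, 16 were tested, 8 positive and 8 negative, beside 30.8% of all genes positive, with a median of -0.01 and none past the threshold. They were 11 positive and 5 negative after cyclic loess and 10 and 6 with normexp. Ifnb1, the first type I interferon made by most cells, was at 10.98, 8.12, 9.44 and 9.06 in the knockout arrays, against 9.45, 8.26, 8.69 and 8.24 in the wild-type arrays. Knockout replicate 5 was the highest array and the groups overlapped (difference 0.74, SE 0.62, limma adjusted p = 0.610). The largest ligand differences, 1.08 for Ifna13 and 1.05 for Ifna12, both came from knockout replicate 6, at 11.33 and 12.08. Interferon alpha genes are near copies of each other, so their probes may share signal.

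The genes that induce interferon or carry its signal, other than the members, were likewise divided. Of 26 listed, 23 were tested, 11 positive and 12 negative, with a median of -0.11 and none past the threshold (limma adjusted p of 0.454 or more). The largest differences were those of Myd88, the adaptor of Toll-like receptors (2.94, SE 1.39), and Ikbke, a kinase that activates Irf3 and Irf7 (2.91, SE 2.26), both with overlapping groups. Trim25, the ubiquitin ligase that activates RIG-I, was the 1 gene of the list whose groups were apart. It was at 16.72, 16.91, 16.77 and 16.59 in the knockout arrays, against 17.46, 17.14, 17.34 and 18.05 in the wild-type arrays. The difference of -0.75 (SE 0.27, limma adjusted p = 0.454) lay between -0.75 and -0.10 over the scalings, and the groups overlapped after cyclic loess and with normexp. The receptor's own kinases had differences of 0.17 for Jak1 and -0.68 for Tyk2, beside the median of -0.33 over all genes. Socs1, the inhibitor of those kinases, was at -1.68 (SE 0.49, limma adjusted p = 0.454), and Unc93b1, which brings the nucleic acid sensing Toll-like receptors to endosomes, was at 2.13 (SE 0.81, limma adjusted p = 0.454).

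A wider list of interferon-stimulated genes outside the 36 had mostly negative differences, as did all genes. Of 66 listed, 61 were tested, 21 positive and 40 negative, with a median of -0.43, near that of all genes, and 0 passed. The groups were apart in 8, each with lower knockout signal: Ms4a4c (-3.82), Pnpt1 (-1.92), Oas1f (-1.61), Adar (-0.63), Slfn5 (-0.60), Cxcl11 (-0.56), Oas1e (-0.54) and Oas1b (-0.43). That is 8 of 61, beside 10.8% of all genes. After cyclic loess, which brought the median of all genes to -0.01, the list had 28 positive and 33 negative differences and 1 gene with groups apart, and the sign of Cxcl11, Oas1b and Slfn5 depended on the scaling. Ms4a4c, a membrane protein of the CD20 family in myeloid cells, was at 10.43, 6.05, 10.55 and 7.68 in the knockout arrays, against 11.63, 10.60, 12.79 and 14.97 in the wild-type arrays. Every knockout array was lower, the closest pair being a few hundredths apart, and the difference was -3.82 (SE 1.29, limma adjusted p = 0.454), between -3.82 and -3.35 over the scalings. Parp12, an ADP-ribosyltransferase, had the largest positive difference (3.73, SE 2.25, limma adjusted p = 0.504). Wild-type replicates 1 and 2, at 3.10 and 4.04, were its 2 low arrays. Ifit3b was at 13.31, 11.97, 14.38 and 14.18 in the knockout arrays, against 11.17, 11.75, 14.39 and 9.43 in the wild-type arrays. Its groups overlapped, with a difference of 1.78 (SE 1.05, limma adjusted p = 0.499), beside 5.44 for Ifit3. On the same wild-type arrays Ifit3 was at 6.68, 6.20, 10.93 and 6.03. Whether their probes share signal was not tested.

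**Figure D5:**
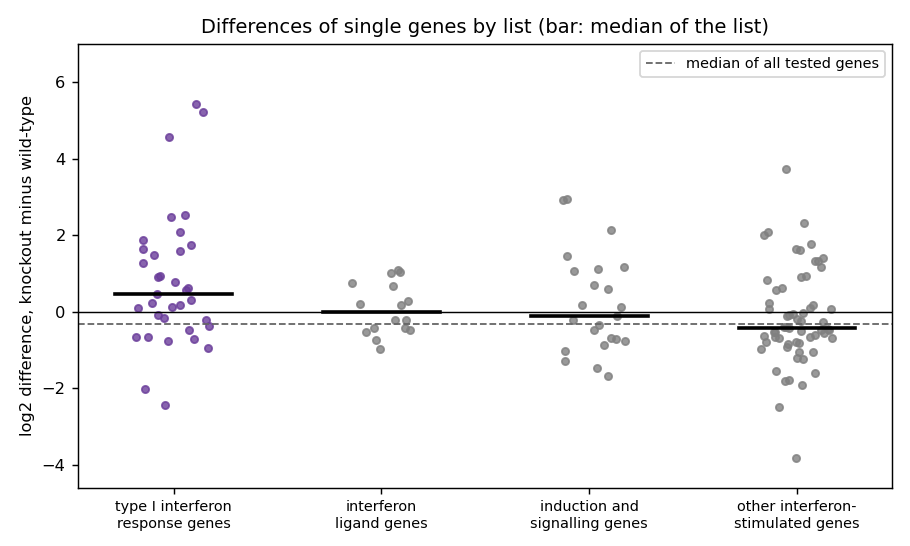
Difference (knockout minus wild-type, log2) of each tested gene in 4 lists, each point a gene, with the list median as a bar and the median of all tested genes (-0.33) as a dashed line; horizontal position within a list has no meaning. The 35 type I interferon response genes have a median of 0.47 and reach 5.44, the 16 ligand genes lie near 0, and the 61 other interferon-stimulated genes have a median of -0.43.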

How the data were processed

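Total RNA of 8 sorted samples was labelled with cyanine 3 after random-primed amplification, per the labels' protocols, and read on 1 Agilent slide in a single colour. The deposited scanner files hold linear intensities, corrected for background and spatial trend by Feature Extraction on mouse build mm9, per the file headers. A deposited table of values, also linear intensities, served as an alternative.

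Control and outlier spots were left out and spots of a probe averaged. Intensities were scaled to the 75th percentile of each array on the log2 scale. Each gene was represented by its brightest probe, kept where 4 or more of the 8 arrays read it well above background. Groups (4 and 4, from the labels) were compared with limma 3.58.1 in R 4.3.3 (lmFit, eBayes, two-sided, Benjamini-Hochberg over all tested genes, threshold 0.05). The same fit was run on simulated data of independent normal values. Those hold no shift or pattern shared within an array, so that run does not show how the test does on these arrays. Of all probes 67.1% were named through RefSeq (GRCm38.p6). Reading used pandas (2.3.3) and R's data.table (1.17.8), and plotting used matplotlib (3.10.9).

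Slide rows held 2 arrays of each group, while slide columns held 1 group each, so column and group cannot be told apart. The members, lists and tests were chosen with earlier results of these data known. All 36 members are accounted for. Values on every array are given for members with groups apart, the 3 largest differences in each direction, and the receptor, transducer and 3 classical genes (Isg15, Ifit1, Mx1). Of the other pathway lists, genes with groups apart and the 2 largest differences are named. Ifnb1, Ifit3b, Jak1, Tyk2, Socs1, Unc93b1 and the cell type markers given with a difference or a mean were named after their values were seen. The number of arrays, 4 a group, limits precision.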

Additional observations from a re-analysis of the deposited data

Results flagged for a closer look

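In 9 of the 70 groups of 4 arrays (35 members in each genotype), the highest or lowest array stood further from its neighbour, relative to the range of its group, than Dixon's 95% limit for 4 values. With independent, normally distributed values, that limit marks about 1 group in 20. The members share arrays and some readings lie near background, so the count of 9 is not read against that rate. Knockout replicate 7 was the high array in 3 of them, with 13.48 for Isg15, 13.33 for Dhx58 and 9.70 for Parp14. Knockout replicate 5 was high for Rsad2 at 11.46 and low for Irf9 at 8.64. Among wild-type arrays, replicate 3 was high for Ifit3 at 10.93, replicate 4 for Usp18 at 10.54 and for Ifnar1 at 13.40, and replicate 1 for Dhx58 at 10.76.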

How the results depend on the processing

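The results were recomputed under 10 other choices of scaling, background correction, filter, probe and slide row, without each of the 8 arrays, and without 2 arrays together. The number of members changed was 0 throughout, except that it was 1 (Ifit3) without wild-type replicate 3, a range of 0 to 1 over the left-out arrays. The number of all genes changed, 1 in the main setting, was 4 after cyclic loess, 7 with the filter at all 8 arrays, 6 with the mean over all probes, 12 with probes named through RefSeq accessions and 2 with slide row as a block, and 0 to 10 over the left-out arrays. Members with every knockout array below every wild-type array numbered 0 to 2 over the left-out arrays. Members with a positive difference numbered 18 to 26, those with every knockout array above numbered 2 to 4, and the median member difference lay between 0.00 and 1.11. Ifit3, Eif2ak2 and Ddx58 were positive in every setting that held them, and Eif2ak2 was filtered out with the filter at all 8 arrays.

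The sign of small member differences depended on the setting, and the cause was not tested. With the mean over all probes, Mx2 was at -0.34, Ifih1 at 0.59, Dhx58 at -0.51, Ifi44 at 0.10 and Ifi204 at 0.98. Stat2 was at 0.060 after scaling to the array median and 0.18 after cyclic loess. Ifnar1 was at 0.021 after quantile normalization, 0.15 after cyclic loess and 0.026 in the value table. Ifi204 was at 0.070 after quantile normalization, 0.16 after cyclic loess, 0.044 with normexp (offset 50) and quantile normalization and 0.069 in the value table. Over the left-out arrays the difference ran from -0.24 to 2.58 for Ifit2, from -0.16 to 0.53 for Mx2, from -1.14 to 0.060 for Oas2, from -0.31 to 0.96 for Oas3, from -0.92 to 2.30 for Rsad2, from -0.82 to 0.90 for Dhx58, from -1.07 to 1.74 for Irf9, from -1.39 to 1.10 for Stat2 and from -0.47 to 1.41 for Zbp1. It ran from -0.97 to 1.30 for Herc6, from -1.55 to 0.11 for Rtp4, from -0.27 to 0.13 for Ifnar1, from -0.13 to 1.44 for Ifi27l2a, from -0.50 to 0.079 for Ifi204 and from -0.22 to 1.10 for Ifi205. No paired analysis was possible because the groups share no replicate numbers. Signal over background limits Herc6 and Mx1 most, whose probes were well above background on 4 and 6 of 8 arrays.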
